A study of Mus musculus with 4 samples.

Results

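The genes described here are 10 components of the Notch pathway, namely the receptors Notch1, Notch2, Notch3 and Notch4, the ligands Jag1, Jag2 and Dll4, and the target genes Hey1, Heyl and Hes1. They were chosen by name as genes with unique molecular identifiers (UMIs, the molecule counts of single-cell RNA-seq) in all 4 matrices, and they make up 10 of the 32285 genes in each matrix. Single cells of mouse ovary were profiled with droplet 3′ RNA-seq from 8-week-old females of the same litter, collected at estrus. The 2 control libraries carried the floxed Fosl2 allele alone (Fosl2F/F), whereas the 2 libraries labelled Fosl2cKO carried the same floxed allele together with Cyp19a1-Cre, in which the recombinase follows the promoter of the aromatase gene of granulosa cells. The floxed allele was therefore shared by all 4 libraries, and deletion was meant for granulosa cells (GCs) and not for the vessels or the stroma. The ovaries are described with n = 2 for each genotype, but neither the labels nor the methods tie each library to a single mouse, so that every p-value below measures the spread between these libraries, which may be technical.

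Notch receptors are single-pass membrane proteins that are activated by Jagged or Delta-like ligands on a neighbouring cell. Ligand binding exposes the receptor to ADAM proteases and then to γ-secretase, and the released intracellular domain joins the DNA-binding protein RBPJ and Mastermind co-activators to switch on Hes and Hey genes, which encode transcriptional repressors. In vessels, DLL4 and NOTCH1 act between endothelial cells and NOTCH3 acts in pericytes and smooth muscle cells. In the follicle, JAG1 of the oocyte and NOTCH2 of the surrounding GCs are the best known ligand and receptor.

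On GRCm38, the receptor genes lie at chr2:26457903-26516663 (Notch1, minus strand), chr3:98013527-98150361 (Notch2, plus strand), chr17:32120820-32166852 (Notch3, minus strand) and chr17:34564268-34588503 (Notch4, plus strand). Fosl2 is a subunit of AP-1, and the promoters of the 7 members with a matched entry in the RefSeq set used here (all receptors and ligands, build GRCm38.p6, 250 bases before to 50 bases after the start) were searched for the AP-1 letters TGANTCA, which read the same on both strands. Hey1, Heyl and Hes1 had no matched entry in that set, so no search covered the target genes. A match was present in 1 of 7, the Notch4 promoter, starting 4 bases before the start that RefSeq gives, which lies downstream of the gene start given above. The 30 bases around it, at chr17:34564280-34564309 on the plus strand, are printed below. They are shown because the promoter of Notch4 was the only one of these 7 that held a match, with the AP-1 letters in capitals.

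Notch4: aggacattgtgTGACTCAggaaacagctca

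The same letters occurred in 7.81% of 32851 promoters of this length. The RBPJ letters TGGGAA, searched on both strands, were in 0 of 7 member promoters and in 25.6% of all promoters, and the E-box CACGTG, to which Hey proteins can bind, was in 0 of 7 and in 7.15%. A match is a description of letters only, and no binding was measured in these libraries.

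The deposited matrices held 11045 and 28155 barcodes in Fosl2F/F replicates 1 and 2 and 8654 and 9255 in Fosl2cKO replicates 1 and 2, with between 120327227 and 148836173 UMIs each. Fosl2F/F replicate 2 stood apart with a median of 3654 UMIs per kept cell against 11187 to 12479 in the other libraries, and with 4723 barcodes removed as doublets against 412 to 614. Between 10 and 38 barcodes were shared by any pair of libraries. Fosl2 itself, the targeted gene, measured 161 and 167 UMIs per 1000000 (CPM) in GC-like cells of the Fosl2F/F libraries and 167 and 115 in those labelled Fosl2cKO (log2 fold change -0.25, SE 0.20, edgeR adjusted p = 0.999), so the library labelled Fosl2cKO replicate 1 was at the control level. Reads were not split by exon, so it was not tested whether this level covers the floxed exons, and it checks the label only in part. Cells were clustered without the 10 members and without 45 other pathway genes, and 13 classes were named from marker lists, each called by that list with the suffix "-like". Marker genes of each class were present in that class in all 4 libraries, but the luteal list summed to 1685 to 5048 CPM in the Fosl2cKO libraries against 6198 and 11952 in the Fosl2F/F libraries. Clusters 1 (led by Enpep, Tmem100 and Asb4), 2 (Abcb1b, Hao2 and Star) and 16 (Enpep, Hhip and Mki67) remained without a name.

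Levels are given in CPM, the UMIs of a gene per 1000000 UMIs of a class in a library, with the mean ± SD over the 4 libraries, and per-library values are listed in the order Fosl2F/F 1, Fosl2F/F 2, Fosl2cKO 1 and Fosl2cKO 2. Reads came from the 3′ end, so a level is compared between classes and not between genes. In comparisons of cells within the same libraries a gene passed at an edgeR adjusted p under 0.1 and an absolute log2 fold change over 0.25, with the library as a block.

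**Figure D1:**
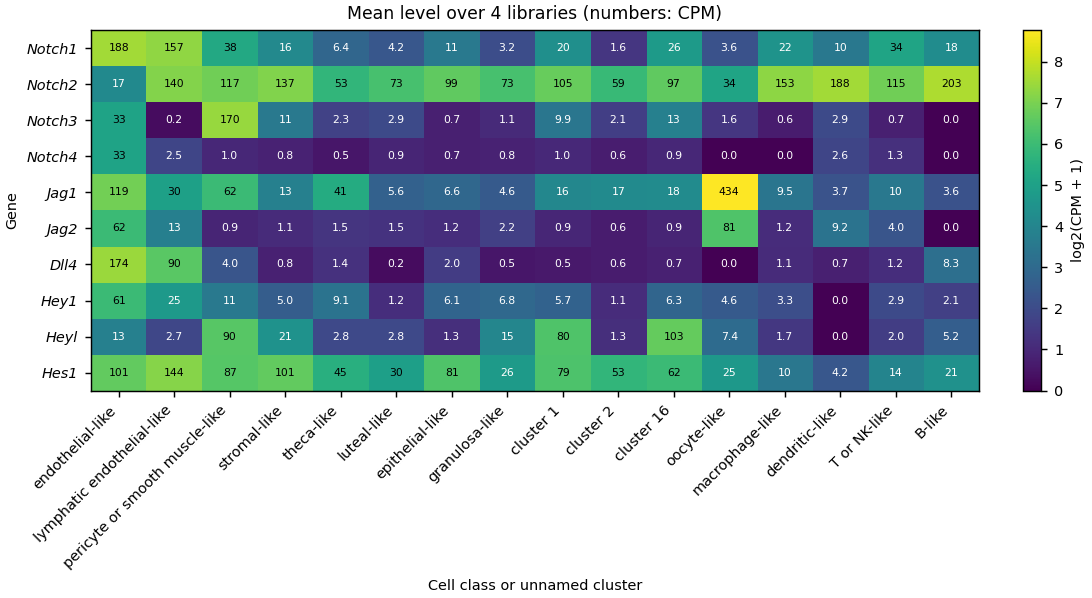
Mean level of each member (rows) over the 4 libraries in each cell class or unnamed cluster (columns), coloured by log2(CPM + 1) and with the CPM printed in each cell. Notch1 and Notch4 are high in endothelial-like cells (188 and 32.9), Notch3 in pericyte or smooth muscle-like cells (170.0), Jag1 in oocyte-like cells (434), and Notch2 is broad with its lowest mean in endothelial-like cells (16.9).

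The receptors followed different classes. Notch1 was detected in endothelial-like cells at 191, 180.3, 186 and 195 CPM (188 ± 6.56, n = 4) and in lymphatic endothelial-like cells at 156, 133, 212 and 128 (157 ± 38.7). The ranges of these classes overlapped, and all 4 values of either class lay above every other class, of which pericyte or smooth muscle-like cells came next with 38.0 ± 5.53. GC-like cells held 3.22 ± 0.245 and cluster 2 the lowest mean with 1.59. When cells were thinned to 2000 UMIs, 27.2% ± 2.63 of endothelial-like cells and 22.5% of lymphatic endothelial-like cells had a Notch1 UMI, against 0.706% of GC-like cells and 4.52% of macrophage-like cells.

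Notch4, the receptor known from endothelium, was detected at 33.7, 29.6, 24.4 and 43.9 CPM in endothelial-like cells (32.9 ± 8.27, n = 4). No other class had a mean above 2.56, the value in dendritic-like cells, and the lowest endothelial-like library was above the highest library of every other class. No Notch4 UMI was found in macrophage-like cells, where a count of 0 allows a level of up to 0.832 to 1.90 depending on the library. After thinning, 5.84% of endothelial-like cells had a Notch4 UMI.

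Notch3 was highest in pericyte or smooth muscle-like cells, with 182, 157, 129 and 212 CPM (170.0 ± 35.6, n = 4), and no other class overlapped this range. Endothelial-like cells came next with 54.8, 27.6, 11 and 37.8 (32.8 ± 18.4), followed by cluster 16 with 13.1 ± 5.75 and stromal-like cells with 10.7 ± 2.72, and these neighbours overlapped. Notch3 was at 1.05 ± 0.444 in GC-like cells. Of thinned pericyte or smooth muscle-like cells, 23.2% ± 2.83 had a Notch3 UMI, whereas the share was 0.149% in GC-like and 0% in macrophage-like cells.

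Notch2 was found in every class. Its means ran from 203 ± 32.6 CPM in B-like, 188 ± 43.3 in dendritic-like and 153 ± 29.6 in macrophage-like cells through 137 ± 32.9 in stromal-like and 72.7 ± 17.1 in GC-like cells down to 16.9 ± 7.57 in endothelial-like cells, where the values were 23.1, 23.4, 13 and 8.14. Every class overlapped its neighbour in this order over the 4 libraries, although the endothelial-like range lay wholly below the GC-like range of 50.5 to 91.4. The GC-like value rested on 3440 to 3901 Notch2 UMIs in each library, and the endothelial-like value on 20 to 93.

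Among the ligands, Jag1 was highest in oocyte-like cells, a class of only 132 cells. The 4 libraries gave 315, 759, 434 and 229 CPM (434 ± 232, n = 4) from 29, 238, 19 and 41 UMIs. Each library was above every other class, since the highest value elsewhere was 149 in endothelial-like cells (97.2, 131, 149 and 98.1; 119 ± 25.5). Pericyte or smooth muscle-like cells held 61.7 ± 15.9, theca-like cells 41.2 ± 4.39 and GC-like cells 4.62 ± 2.02. After thinning, 39.6% ± 18.0 of the oocyte-like cells had a Jag1 UMI against 0.896% of GC-like cells, but only 53 of the 132 oocyte-like cells were deep enough to be thinned.

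Jag2 was also found mainly in oocyte-like cells (54.3, 76.6, 137 and 55.8 CPM; 81.0 ± 38.8, from 5 to 24 UMIs per library) and endothelial-like cells (55.8, 60.5, 56.2 and 75.7; 62.0 ± 9.34). These classes overlapped and lay above lymphatic endothelial-like cells at 12.9 ± 5.37 and dendritic-like cells at 9.23 ± 5.98. GC-like cells were at 2.19 ± 0.419. The oocyte-like class held GC marker genes at a summed 297 to 941 CPM, and their part in its ligand levels was not tested. The level of Jag1 in GC-like cells was lower than in oocyte-like cells in all 4 libraries, as was that of Jag2.

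Dll4, the ligand known from endothelial cells, was high in the endothelial classes. It measured 181, 178, 173 and 162 CPM in endothelial-like cells (174 ± 8.39, n = 4) and 104, 83.6, 103 and 69.6 in lymphatic endothelial-like cells (90.0 ± 16.5), with no overlap between these classes. B-like cells held 1 Dll4 UMI in all, pericyte or smooth muscle-like cells were at 3.98 ± 1.51, and every other class was below 2. Thinned endothelial-like cells had a Dll4 UMI in 23.6% ± 2.77, against 0.0982% of GC-like and 0.152% of macrophage-like cells.

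The target genes were detected in vascular and other classes. Hey1, a repressor known from arterial endothelium, measured 60.6, 75.6, 54.1 and 55.3 CPM in endothelial-like cells (61.4 ± 9.86, n = 4), above lymphatic endothelial-like cells at 25.3 ± 5.61, with no overlap. Pericyte or smooth muscle-like, theca-like and GC-like cells followed with 10.6 ± 3.51, 9.06 ± 2.10 and 6.83 ± 2.34 and overlapped.

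Heyl, a Notch target known from vascular smooth muscle, was high in 3 groups of cells. The unnamed cluster 16 had 52.2, 96.0, 178 and 83.7 CPM (103 ± 53.9), pericyte or smooth muscle-like cells 71.6, 91.7, 84.4 and 111 (89.7 ± 16.5), and the unnamed cluster 1 79.9 ± 7.21. These ranges overlapped, and all 3 lay above stromal-like cells at 21.0 ± 4.66, GC-like cells at 15.2 ± 2.81 and endothelial-like cells at 13.1 ± 4.33. Notch3 did not share this pattern, since clusters 16 and 1 held it at 13.1 ± 5.75 and 9.94 ± 2.89.

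Hes1 was the most broadly detected target. Its level was 86.8, 165, 219.5 and 104 CPM in lymphatic endothelial-like cells (144 ± 60.5, n = 4), 101 ± 35.3 in stromal-like, 101 ± 22.8 in endothelial-like, 87.1 ± 34.9 in pericyte or smooth muscle-like and 80.7 ± 19.6 in epithelial-like cells, with overlap among all of these. GC-like cells held 12.8, 27.4, 38.6 and 26.7 (26.3 ± 10.6), and macrophage-like and dendritic-like cells 10.1 ± 1.33 and 4.16 ± 1.84.

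Blood vessel and lymphatic endothelium were compared first, since both carry Notch1 and Dll4. Of 9 members tested, 6 were higher and 2 lower in endothelial-like than in lymphatic endothelial-like cells, where 35.0% of all 9433 genes tested passed. The median log2 fold change was 1.13 over the members and 0.02 over all genes. Notch3 and Notch4 entered through the class in which they were high, and without them 4 of 7 were higher and 2 lower, with a median of 0.90. Notch1 did not pass (log2 fold change 0.21, SE 0.18, adjusted p = 0.447), and Dll4 was higher by 0.90 (SE 0.18, adjusted p = 0.0011). Both Jagged ligands were higher, Jag1 by 1.99 (SE 0.24, adjusted p = 8.84e-06) and Jag2 by 2.38 (SE 0.29, adjusted p = 1.15e-05), as was Hey1 by 1.13 (SE 0.24, adjusted p = 0.00196). Jag2 and Hey1 had too few UMIs to be tested for genotype within lymphatic endothelial-like cells, at 6.78 to 17.4 and 17.4 to 30.6 CPM. Both count among the 4 of 7, so these calls rest on few lymphatic UMIs.

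Notch2 went in the opposite direction and was lower in endothelial-like cells (log2 fold change -3.14, SE 0.27, adjusted p = 1.98e-07), at 16.9 ± 7.57 against 140.5 ± 41.8 CPM. Notch3 and Notch4 passed as higher, but the lymphatic libraries held only 1 and 2 UMIs of them in all, so they are given as pooled ratios. Pooled over the libraries, Notch3 was 56.5 times as high in endothelial-like cells (287 UMIs against 1, exact 95% interval 10.1 to 2240.1) and Notch4 31.6 times as high (321 UMIs against 2, interval 8.68 to 262), where the intervals cover counting error only. Hes1 was lower (log2 fold change -0.62, SE 0.24, adjusted p = 0.0624), and this call was lost in DESeq2 (adjusted p = 0.287) and without Fosl2F/F replicate 2 or Fosl2cKO replicate 1 (adjusted p = 0.488 and 0.435). Heyl had too few UMIs to be tested here. The endothelial-like class held the pericyte and smooth muscle marker list at a summed 343 to 630 CPM and the GC list at 188 to 491, while the lymphatic class held the first list at 46.4 to 76.9, and their part in the Notch3 difference was not tested in this pair.

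**Figure D2:**
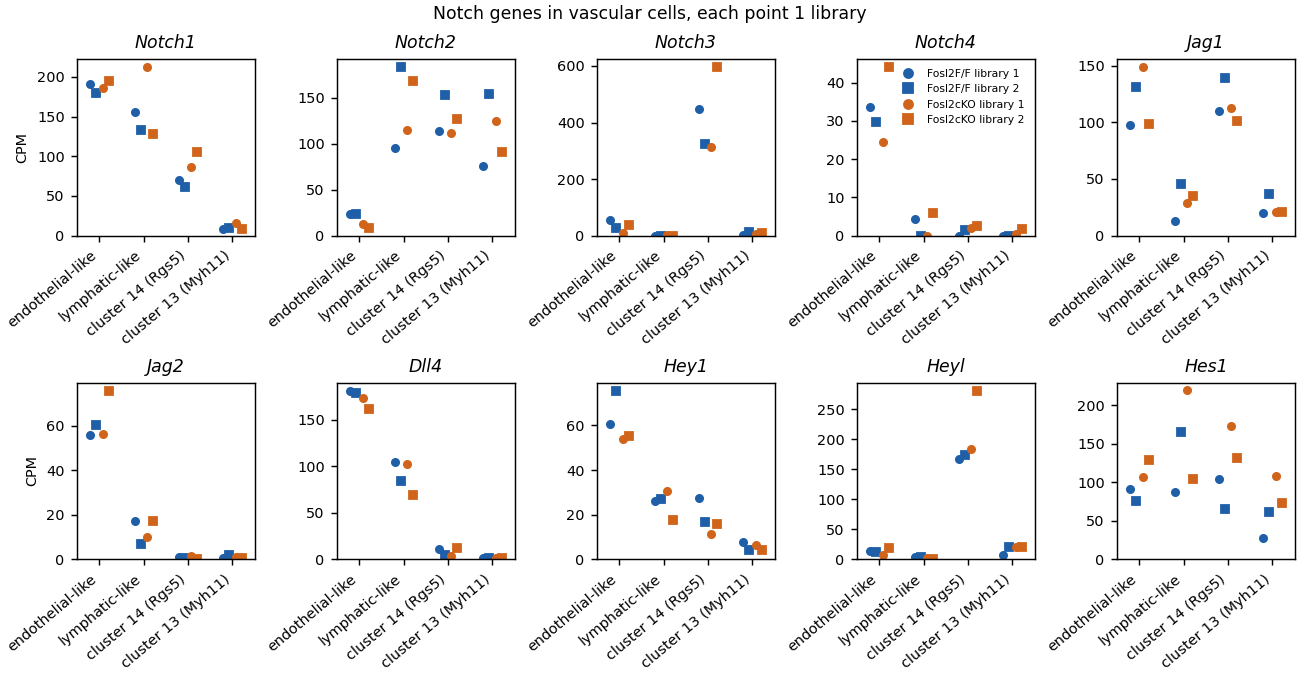
Level of the 10 members (CPM, linear axis from 0) in endothelial-like cells, lymphatic endothelial-like cells and the 2 clusters of pericyte or smooth muscle-like cells, where each point is 1 library, blue for Fosl2F/F and orange for Fosl2cKO. Notch3 and Heyl are high in cluster 14 (means 420.0 and 201) and low in cluster 13 (7.35 and 17.0), and Dll4 is high in both endothelial classes.

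Pericyte or smooth muscle-like cells were then compared with stromal-like cells. Of 8 members tested, 6 were higher in pericyte or smooth muscle-like cells and 0 were lower, against 30.6% of 12808 genes that passed in either direction. The median log2 fold change was 1.69 over the members and -0.02 over all genes. The receptor Notch3 was higher by 4.02 (SE 0.13, adjusted p = 1.08e-08), the ligand Jag1 by 2.26 (SE 0.11, adjusted p = 1.75e-07) and the target Heyl by 2.14 (SE 0.11, adjusted p = 2.08e-07). Notch1 was higher by 1.25 and Hey1 by 1.03 (adjusted p = 0.0113). Dll4 passed as well (log2 fold change 2.38, adjusted p = 0.0019) at a level of only 3.98 against 0.750 CPM. It had too few UMIs to be tested for genotype within stromal-like cells and entered through the class in which it was higher. It still counts among the 6 and in the median. The endothelial marker list summed to 53.2 to 84.7 in the pericyte or smooth muscle-like class, and the part of endothelial RNA was not tested. Notch2 (log2 fold change -0.20, adjusted p = 0.115) and Hes1 (-0.20, adjusted p = 0.219) did not pass.

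The pericyte or smooth muscle-like class joined 2 clusters, and the members differed between them, which is given as a description without a test. Cluster 14, with 1060 cells and Rgs5, a pericyte gene, at 1187 to 2508 CPM, held Notch3 at 420.0 ± 131 (range 315 to 595). Cluster 13, with 1092 cells, Rgs5 at 5.67 to 24.9 and the smooth muscle gene Myh11 at 1004 to 1503, held Notch3 at 7.35 ± 3.51 (range 2.84 to 11.3). The same order was seen for Heyl (201 ± 53.1 against 17.0 ± 6.64), Notch1 (80.8 ± 19.3 against 10.2 ± 3.64) and Jag1 (116 ± 16.4 against 24.5 ± 8.36), with no overlap between clusters. Notch2 overlapped (126 ± 19.4 against 111 ± 34.6), and so did Hes1 (118 ± 45.4 against 67.4 ± 33.7). Cluster 14 also carried Myh11 at 565 to 1184, so neither cluster was free of this smooth muscle gene. Against stromal-like cells, the mean in cluster 13 was lower for Notch3 (7.35 against 10.7), Heyl (17.0 against 21.0) and Notch1 (10.2 against 16.3). It was higher, with overlap, for Jag1 (24.5 against 13.3), Dll4 (1.60 against 0.750) and Hey1 (5.67 against 5.01). The higher Notch3, Heyl and Notch1 of the joined class were therefore seen in cluster 14 only, which was not tested.

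When pericyte or smooth muscle-like cells were instead split by at least 1 UMI of Myh11, Cnn1 or Actg2, 2 of 7 members tested were lower in the marked cells and 0 were higher, against 13.5% of 10345 genes. Notch1 was lower (log2 fold change -1.0, SE 0.16, adjusted p = 0.000981), as was Heyl (-1.44, SE 0.19, adjusted p = 0.000179). Notch3 did not pass (0.03, SE 0.12, adjusted p = 0.945). Between 69.0% and 80.9% of cells were marked in each library, and median UMIs were higher in marked than in unmarked cells in all 4 libraries.

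Arterial cells were examined because Notch signalling is known from arterial fate. Endothelial-like cells with at least 1 UMI of the arterial genes Gja4, Gja5, Sox17 or Bmx numbered 63, 264, 105 and 129 in the 4 libraries, against 72, 349, 80 and 62 unmarked cells. Of 10 members tested, 8 were higher in the marked cells and 0 were lower, whereas 7.77% of 9621 genes passed. The median log2 fold change was 0.73 over the members and -0.02 over all genes. Without Notch3 and Heyl, which had few UMIs in unmarked cells, 6 of 8 were higher, with a median of 0.64. Jag1 rose from 36.4, 36.9, 46.2 and 43.6 CPM in unmarked cells to 129, 202, 189.2 and 105 in marked cells (log2 fold change 2.07, SE 0.17, adjusted p = 3.21e-07). Hey1 rose from 8.39, 26.9, 11.6 and 18.2 to 88.0, 112, 70.8 and 60.0 (2.24, SE 0.21, adjusted p = 1.54e-06). For both genes every marked library lay above every unmarked library.

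Smaller differences were found for Notch1 (0.60, SE 0.12, adjusted p = 0.00388), Dll4 (0.54, SE 0.12, adjusted p = 0.0121) and Jag2 (0.79, SE 0.18, adjusted p = 0.0109), and Notch1 and Dll4 were higher in marked cells within each library. Notch4 passed narrowly (0.68, SE 0.22, adjusted p = 0.0993) and did not pass when any of the 4 libraries was left out or in DESeq2, in which 6 members passed. Jag2 did not pass without Fosl2F/F replicate 2 (adjusted p = 0.159), and Heyl was not tested then, so that 5 members passed without this library. Notch2 (0.51, adjusted p = 0.479) and Hes1 (-0.05, adjusted p = 0.923) did not pass.

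Notch3 and Heyl also passed as higher in the arterial comparison, but unmarked cells held only 12 and 9 UMIs of them over the 4 libraries, so they are given as pooled ratios. Notch3 measured 80.7, 44.4, 14.7 and 42.6 CPM in marked cells against 5.59, 5.27, 1.44 and 0 in unmarked cells, a pooled ratio of 10.1 (275 UMIs against 12, exact 95% interval 5.67 to 19.7). The ratio for Heyl was 5.86 (120 UMIs against 9, interval 2.99 to 13.1), and both intervals cover counting error only. Both were high in pericyte or smooth muscle-like cells, whose marker list summed to 453 to 902 in marked and 63.6 to 140 in unmarked cells. The stromal list summed to 374 to 2071 against 130 to 238. A UMI of Rgs5, Acta2, Myh11 or Des was present in 28.7% to 37.1% of marked cells and 8.06% to 23.8% of unmarked cells. Without these cells, Notch3, Heyl and Notch2 fell below the count filter, while Jag1 (2.37), Hey1 (2.38), Jag2 (1.15), Notch1 (0.54) and Dll4 (0.55) passed with these log2 fold changes. Median UMIs per cell were 4529.5 to 9571 in marked and 3107.5 to 6979 in unmarked cells, and a deeper cell is more likely to be marked.

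**Figure D3:**
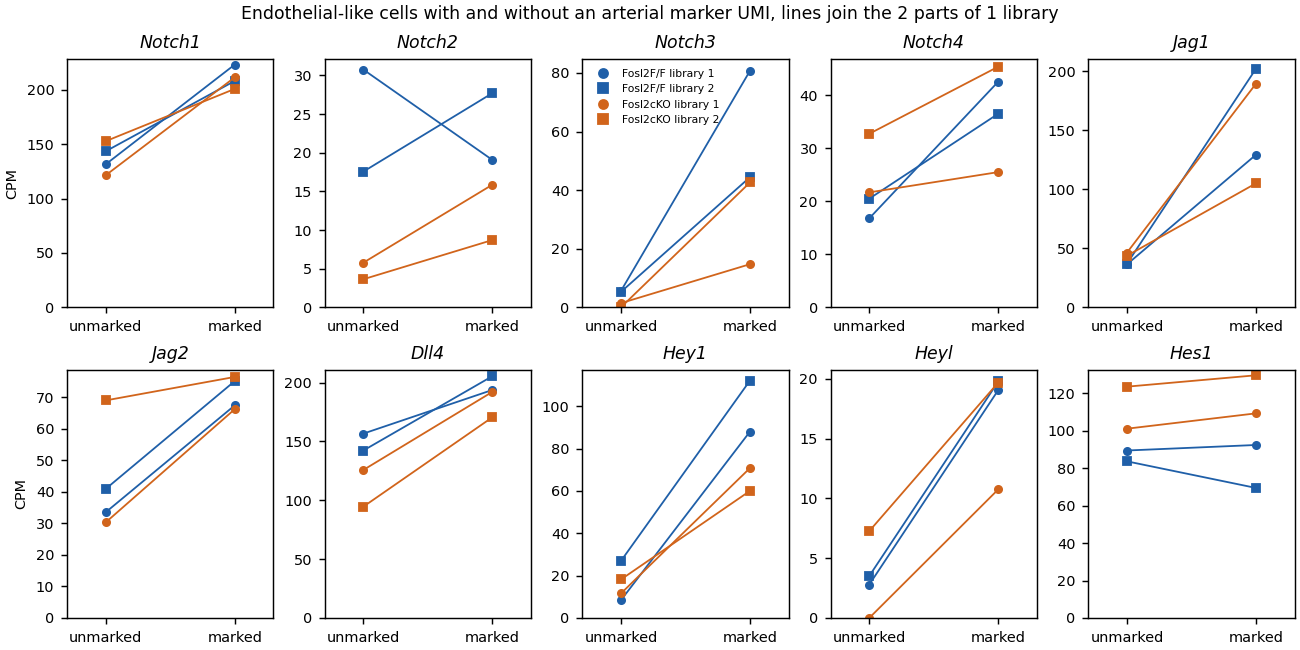
Level of the 10 members (CPM, linear axis from 0) in unmarked and arterial-marked endothelial-like cells, where lines join the values of 1 library, blue for Fosl2F/F and orange for Fosl2cKO. Jag1, Hey1, Notch1, Notch3 and Dll4 are higher in marked cells in all 4 libraries, and Hes1 differs by a log2 fold change of -0.05.

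GC-like cells were compared with stromal-like and theca-like cells. Against stromal-like cells, 7 of 10 members passed, 1 higher and 6 lower, where 70.3% of 16200 genes passed, so that the share of members called was close to that of all genes. The median log2 fold change was -0.81 over the members and 0.02 over all genes. Notch3 was lower (log2 fold change -3.40, SE 0.21, adjusted p = 1.84e-06), followed by Notch1 (-2.36), Hes1 (-1.99), Jag1 (-1.56), Notch2 (-0.94) and Heyl (-0.48). Jag2 was higher (1.01, SE 0.35, adjusted p = 0.0313), at 2.19 against 1.12 CPM, and did not pass without Fosl2cKO replicate 2 (adjusted p = 0.114). It had too few UMIs to be tested for genotype within stromal-like cells and entered through GC-like cells, in which it was higher. Jag2 is the only gene counted as higher here, and this call rests on few stromal-like UMIs.

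Theca-like cells were named after the androgen-producing cells of the outer layer of the follicle. They differed from GC-like cells in 8 of 10 members, 2 higher and 6 lower in GC-like cells, where 60.5% of 15646 genes passed. Jag1 showed the largest difference, at 4.62 ± 2.02 in GC-like against 41.2 ± 4.39 CPM in theca-like cells (log2 fold change -3.28, SE 0.22, adjusted p = 2.33e-06). Heyl was higher in GC-like cells, at 15.2 ± 2.81 against 2.79 ± 0.838 (2.42, SE 0.25, adjusted p = 3.6e-05), and Notch2 was higher by 0.47 (SE 0.12, adjusted p = 0.0107). Of the genes that were lower, Hes1 (-0.73) was at 26.3 against 45 CPM, whereas Notch1 (-1.01), Notch3 (-1.26) and Dll4 (-1.55) were at 3.22, 1.05 and 0.458 in GC-like cells. Dll4 had too few UMIs to be tested for genotype within theca-like cells, at 0.303 to 2.28 CPM. It entered through theca-like cells, in which it was higher, and still counts among the 6 lower and the 8 that passed. Hey1 was lower (-0.52, adjusted p = 0.0978) but did not pass in DESeq2 (adjusted p = 0.121) or without Fosl2F/F replicate 1, Fosl2cKO replicate 1 or Fosl2cKO replicate 2 (adjusted p = 0.289, 0.164 and 0.364).

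**Figure D4:**
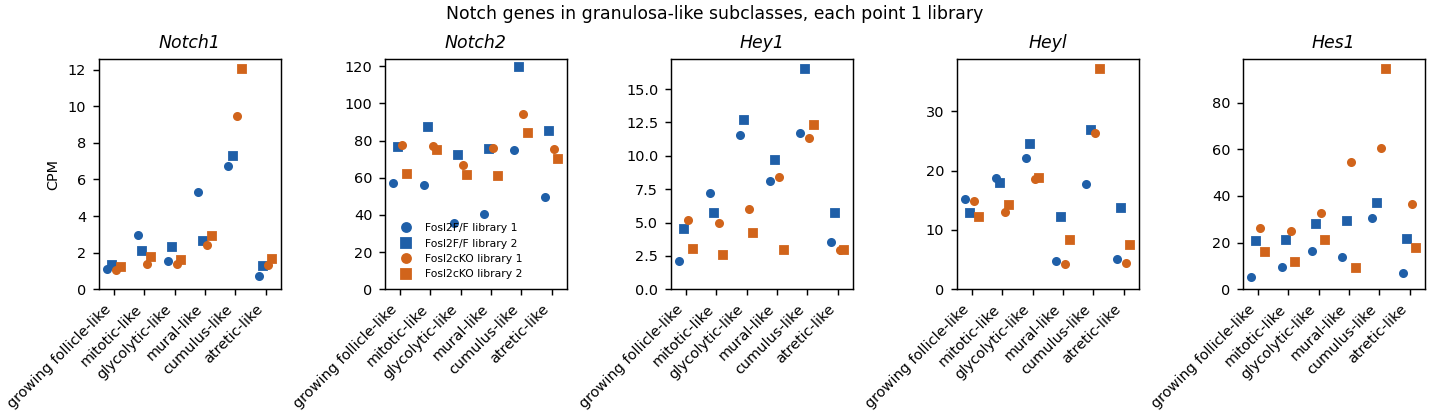
Level of Notch1, Notch2, Hey1, Heyl and Hes1 (CPM, linear axis from 0) in the 6 named GC-like subclasses, where each point is 1 library, blue for Fosl2F/F and orange for Fosl2cKO. All 4 cumulus-like values of Notch1 (6.76 to 12.0) lie above every other subclass, whereas Notch2 overlaps between subclasses next to each other in level.

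GC-like cells were clustered again, and cumulus-like cells (3249) were compared with mural-like cells (3003). Cumulus cells surround the oocyte and mural cells line the follicle wall. The classes here were named from marker lists, and position was not measured. Of 8 members tested, 5 were lower in mural-like cells and 0 were higher, against 59.6% of 12955 genes in either direction. The median log2 fold change was -0.68 over the members and 0.00 over all genes. Notch1 measured 6.76, 7.26, 9.46 and 12.0 CPM in cumulus-like and 5.32, 2.66, 2.42 and 2.91 in mural-like cells (log2 fold change -1.33, SE 0.31, adjusted p = 0.00625). Heyl measured 17.8, 26.9, 26.4 and 37.2 against 4.75, 12.2, 4.20 and 8.31 (-1.90, SE 0.22, adjusted p = 0.000187). For both genes every cumulus-like library lay above every mural-like library.

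Notch2 was also higher in cumulus-like cells within each library, at 75.1, 119.6, 94.2 and 84.1 against 40.7, 75.3, 76.0 and 61.1 (mural-like minus cumulus-like log2 fold change -0.55, SE 0.11, adjusted p = 0.00308), with a small overlap between the classes across libraries. Hey1 (-0.80, SE 0.24, adjusted p = 0.0227) was lower in mural-like cells. Hes1 passed (-1.07, SE 0.43, adjusted p = 0.0637) but not in DESeq2 (adjusted p = 0.146) or without Fosl2F/F replicate 1 (adjusted p = 0.146). Jag1 (0.50, adjusted p = 0.176), Jag2 (0.18, adjusted p = 0.677) and Notch3 (0.97, adjusted p = 0.107) did not pass. The theca marker list summed to 3643 to 5346 in mural-like and 607 to 1043 in cumulus-like cells, a list that holds steroidogenic genes which mural GCs also express, and its part in these differences was not tested.

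Mural-like cells were also compared with atretic-like cells (2070), named from a marker list for GCs of degenerating follicles. Of 7 members tested, 2 were higher in mural-like cells and 0 were lower, against 31.4% of 12850 genes, namely Notch1 (log2 fold change 1.46, SE 0.40, adjusted p = 0.0367) and Hey1 (0.87, SE 0.26, adjusted p = 0.0493). Neither passed without Fosl2F/F replicate 1 (adjusted p = 0.149 and 0.15), Notch1 alone passed without Fosl2cKO replicate 1, and 4 members passed without Fosl2cKO replicate 2. Atretic-like cells held Notch1 at 0.721, 1.27, 1.31 and 1.65 CPM. It had too few UMIs to be tested for genotype within atretic-like cells. Notch1 therefore entered this comparison through mural-like cells, in which it was higher, and it is 1 of the 2 calls.

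The question of the knockout was whether any member changed with the genotype labels, and it was asked within 15 classes or clusters and 6 GC-like subclasses with at least 20 cells in every library. The labels were used as given, although Fosl2 in GC-like cells of Fosl2cKO replicate 1 was at the control level. In edgeR, 0 of 130 tests of a member passed, and the lowest adjusted p was 0.234. At an unadjusted p under 0.05, 11 of the 130 tests were found, where 5.62% of the 240350 tests of any gene in the same groups lay under it. Of those tests 0.0865% passed, with 0.00579% in GC-like cells and 0.177% in endothelial-like cells. With DESeq2, 1 member passed in cumulus-like cells and 0 in the other groups. Over all 10 members, the median log2 fold change between Fosl2cKO and Fosl2F/F libraries was -0.23 in GC-like cells and 0.02 in endothelial-like cells.

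Of the 11 member tests at an unadjusted p under 0.05, set against 5.62% of all tests, 7 were of Hes1, each higher in the libraries labelled Fosl2cKO, and 4 were lower, of Notch2 and Hey1. Notch2 measured 23.1 and 23.4 in endothelial-like cells of Fosl2F/F libraries and 13 and 8.14 in those of Fosl2cKO libraries (log2 fold change -1.14, adjusted p = 0.532). Hey1 measured 11.6 and 12.7 against 6.02 and 4.21 in the glycolytic-like subclass (-1.31, adjusted p = 0.325), where 0.0161% of all genes passed, and it was called there without Fosl2cKO replicate 1 (adjusted p = 0.0838). Neither difference passed over all 4 libraries. Notch3 in endothelial-like cells, not among the 11, did not pass either. Its log2 fold change ran from -1.84 to -0.024 when 1 library was left out.

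Hes1, described further because of these unadjusted values, had a positive log2 fold change in 19 of the 19 groups tested, although the groups share the same 4 libraries and are no independent repeats. Its sign turned in 7 of the 19 groups when 1 library was left out, namely without Fosl2cKO replicate 1 in mural-like (-1.24), mitotic-like (-0.39), lymphatic endothelial-like (-0.37), macrophage-like (-0.16) and glycolytic-like cells (-0.10), and without Fosl2F/F replicate 1 in epithelial-like (-0.064), growing follicle-like (-0.0030), glycolytic-like (-0.089) and mitotic-like cells (-0.20). The libraries labelled Fosl2cKO lay above both Fosl2F/F libraries in 6 of 10 named classes, in the 3 unnamed clusters and in 1 of 6 GC-like subclasses, and below them in 0, where 19.9% of all gene tests in these 19 groups, and between 13.8% and 29.3% in each, lay above. The luteal-like class among them was of uneven make-up, since cluster 18, led by Akr1c18, held 111 of 176 and 349 of 1245 of its cells in the Fosl2F/F libraries and 15 of 327 and 31 of 287 in the Fosl2cKO libraries. Hes1 measured 11.8 and 39.8 against 143 and 92.3 CPM in cluster 18 and 12.4 and 15.6 against 45.7 and 28.6 in cluster 9, the rest of this class. The value of 12.4 rested on 2 Hes1 UMIs. Akr1c18 measured 2575 and 2274 CPM in Fosl2F/F and 166 and 1.68 in Fosl2cKO libraries of cluster 18. In cluster 9 it measured 2799 in Fosl2F/F replicate 1 and 4.88, 1.86 and 0.178 in the other libraries. The split by cluster therefore does not compare like cells. In cumulus-like cells Hes1 measured 30.7 and 37.1 CPM in Fosl2F/F and 60.5 and 94.2 in Fosl2cKO libraries (log2 fold change 1.14, SE 0.26, adjusted p = 0.234), where 0.107% of all genes passed. This value passed in DESeq2 (adjusted p = 0.0281) and without Fosl2cKO replicate 1 (adjusted p = 0.00196), so the call there depended on the tool and on 1 library.

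In classes other than the GCs, Hes1 measured 17.5 and 35.0 against 80.6 and 46.7 in theca-like cells (log2 fold change 1.2) and 58.0 and 63.2 against 134 and 93.1 in pericyte or smooth muscle-like cells (0.87), classes in which 0.0477% and 0.00813% of all genes passed. The theca-like value passed without Fosl2cKO replicate 2 (adjusted p = 0.0348). In GC-like cells as a whole the libraries overlapped (12.8 and 27.4 against 38.6 and 26.7; 0.68, adjusted p = 0.999). A list of 10 immediate early and heat shock genes was summed in the same groups after the Hes1 values were seen, and its part in them was not tested. Its Fosl2cKO libraries lay above the Fosl2F/F libraries in 1 of 19 groups and below in 5, where 19.9% of all gene tests lay above and 13.6% below.

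Hey1 was lower without overlap in several groups and passed in none of them over all 4 libraries. Like Hes1, it is described here because of its values. Both Fosl2cKO libraries lay below both Fosl2F/F libraries in 7 of the 15 groups in which Hey1 was tested, and above in 2, where 12.9% of all gene tests in these groups lay below and 19.3% above. The 7 groups were endothelial-like, GC-like, pericyte or smooth muscle-like, atretic-like, glycolytic-like and mitotic-like cells and cluster 1, and they share the same 4 libraries. The atretic-like, glycolytic-like and mitotic-like cells are also part of the GC-like cells and were counted again there. Among the other members, Notch1 was higher without overlap in 6 and lower in 2 of 16 groups. Notch2 was so in 1 and 3 of 21, Heyl in 1 and 3 of 14 and Jag1 in 2 and 2 of 18. Jag2 was so in 1 and 1 of 9, Dll4 in 0 and 2 of 4, Notch3 in 0 and 2 of 11 and Notch4 in 0 and 0 of 3. In the 19 groups with Hes1 tested, 19.9% of all gene tests lay above and 13.6% below. Over all members, the sign turned in 61 of the 130 tests when some library was left out.

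**Figure D5:**
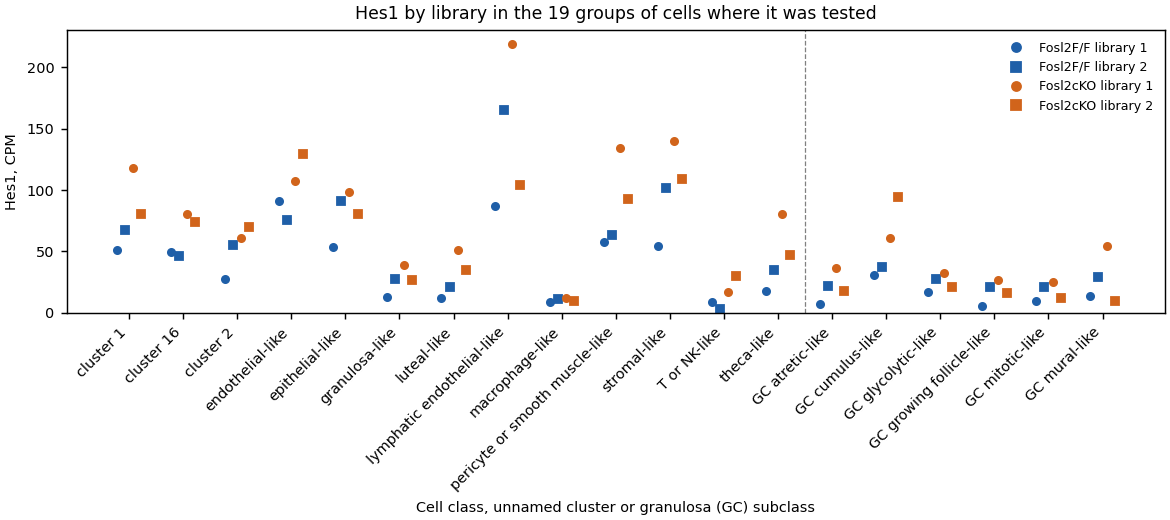
Hes1 level by library (CPM, linear axis from 0) in the 19 groups of cells in which it was tested, blue for Fosl2F/F and orange for Fosl2cKO, with GC-like subclasses right of the dashed line. Both Fosl2cKO libraries lie above both Fosl2F/F libraries in 10 of the 19 groups, and no group passed the test over all genes.

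Whether the genotype difference itself varied between GC-like and stromal-like cells was tested as an interaction. None of the 10 members passed, and edgeR called 0% of 17522 genes, with 584 genes at an unadjusted p under 0.05. DESeq2 also called 0 members. Hey1 had the largest value among the members, -1.18 with an SE of 0.36 (adjusted p = 1).

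The 45 other pathway genes were tested in the same comparisons. Between endothelial-like and lymphatic endothelial-like cells, 6 of 32 tested were higher and 7 lower, where 35.0% of all genes passed. The Deltex gene Dtx1, a modulator of Notch signalling, was nearly absent from endothelial-like cells, with 2 UMIs pooled over the libraries against 295 in lymphatic endothelial-like cells (a pooled ratio of 749, exact 95% interval 206 to 6214, counting error only). Mfng, a Fringe enzyme that adds sugars to Notch receptors, was high in endothelial-like cells (97.2 against 2.37 CPM). Lymphatic libraries ran from 0 to 6.78 CPM of Mfng, so its fold change is not given. Both genes count among those that passed. The γ-secretase gene Psen2 (-1.91) and the protease gene Adam10 (-0.69) were lower, and Maml3, a Mastermind co-activator (1.56), and the γ-secretase subunit gene Aph1a (0.80) were higher. In pericyte or smooth muscle-like against stromal-like cells, 7 of 36 were higher and 3 lower against 30.6% of all genes, of which Maml2 (-0.57), Maml3 (-0.43), Dtx3 (0.39), Dtx4 (0.34) and Aph1a (0.25) were the changed genes with a mean of at least 20 CPM.

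In GC-like cells the target gene Hey2, which was not among the 10 members, was higher than in stromal-like and theca-like cells. It measured 48.6 CPM in GC-like against 3.35 in stromal-like cells (log2 fold change 3.83) and 2.23 in theca-like cells (4.38), and it was higher in mural-like than in cumulus-like (71.2 against 36.0; 1.05) or atretic-like cells (1.35), the opposite order to Heyl between mural-like and cumulus-like cells. Over the list, 12 were higher and 16 lower of 43 tested in GC-like against stromal-like cells, where 70.3% of all genes passed. Dtx3 (log2 fold change -1.50), Maml2 (-1.39), the protease gene Furin (-1.15) and Maml3 (-1.04) were lower there and Adam10 (0.76) was higher. Against theca-like cells 14 of 41 were higher and 15 lower, where 60.5% of all genes passed, with Dtx4 (-5.25), Psen2 (-1.78) and Dtx3 (-1.43) lower and Maml2 (1.21) and Rbpj (0.86) higher. Between mural-like and cumulus-like cells 13 of 34 were higher and 10 lower against 59.6% of all genes, with Maml3 (-1.68), Maml2 (-1.12) and the ubiquitin ligase gene Itch (-0.77) lower and Aph1a (0.76) higher in mural-like cells. Against atretic-like cells 5 of 33 were higher and 4 lower against 31.4% of all genes, with Maml2 (-1.34), Psen2 (-0.60) and Furin (-0.52) lower and Numb, an inhibitor of Notch signalling, higher (0.60).

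In arterial-marked endothelial-like cells 2 of 33 were higher and 0 lower against 7.77% of all genes. They were Hey2 (24.8 against 7.38 CPM) and Dll1 (11.3 against 5.72), both named after their values were seen. Unmarked cells held only 275089 to 1708507 UMIs in each library, so both calls rest on few unmarked UMIs. Both genes may have entered through the marked cells, in which they were higher, and their fold changes are not given. In smooth muscle-marked cells Dtx4 was lower (-1.13) and no other listed gene passed of 34, where 13.5% of all genes passed. None of the 45 passed for genotype in any of the 21 groups.

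Genes with the pattern most like each member over the 13 named classes were found by Pearson's r of the log2 mean level among 12318 genes. The closest was Vash1 for Notch4 (r = 0.979), the endothelial gene Bcl6b for Dll4 (0.975), Arap3 for Notch1 (0.909) and Uhrf1bp1l for Notch2 (0.879). For Notch3 the closest were Rgs4 (0.958), Akap6 (0.95) and Des (0.945), the last a filament gene of muscle and pericytes. Lurap1l was closest to Jag1 (0.906), Upp1 to Jag2 (0.95), Ubr7 to Hey1 (0.892), Ndufa4l2 to Heyl (0.902) and Ptprk to Hes1 (0.969). Among the members themselves, Notch1 and Dll4 were most alike (0.886), followed by Hey1 and Hes1 (0.794), Dll4 and Hey1 (0.767), Notch3 and Heyl (0.737), Notch4 and Dll4 (0.732) and Jag1 and Jag2 (0.705), while Notch2 and Jag1 ran in opposite directions (-0.696). All points come from the same 4 libraries, classes differ in cell number and depth, and each r is a description over 13 classes.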

How the data were processed

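Whole ovaries were dissociated by the authors and single cells were sequenced on the Chromium 3′ platform. The deposited files hold raw UMI counts per gene and cell barcode, which the authors made with Cell Ranger on GRCm38 (version 7.1.0 per the file headers, whereas the methods name another version; the labels give Seurat 4.1.0 for later steps and the methods a later version); whether CellBender, named in the study's methods, had been applied to the deposited counts is not given in the sources used here. Here, a barcode was kept if it had 500 or more genes and over 1000 UMIs, of which under 10% were mitochondrial and under 0.1% from hemoglobin genes, and the highest Scrublet scores (scanpy 1.11.5) were removed at 0.8% per 1000 cells. Libraries were normalised with sctransform 0.4.2, integrated in Seurat 5.3.0 with reciprocal PCA (3000 features, 30 dimensions) and clustered at a resolution of 0.8, or 0.5 for GC-like cells. The members and 45 pathway genes were left out of the clustering features. UMIs were summed per class and library and tested with edgeR 4.0.16 in R 4.3.3 (quasi-likelihood, TMM, filterByExpr, Benjamini-Hochberg over all genes tested), with classes of at least 20 cells per library, and DESeq2 1.42.0 served as an alternative. Genes passed at an adjusted p under 0.1 with an absolute log2 fold change over 0.25. Samples were grouped by the labels, and the library was the replicate. Shares of cells with a UMI were taken after thinning each cell to 2000 UMIs, and intervals and floors (3 counts) cover counting error only.

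The members, gene lists and tests were chosen with earlier results of these data known. The 10 members were named in every comparison; of the 45 pathway genes, at most 6 per comparison were named, by size of fold change among those that passed with a mean of at least 20 CPM (UMIs per 1000000). The tests were checked on simulated counts. Hey2 and Dll1 in the arterial comparison fell under this level and were named after their values were seen, and 1 pathway gene that met the rule is not reported here.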

Additional observations from a re-analysis of the deposited data

How the results depend on the processing

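Leaving out each library in turn gave 0 to 1 members called for genotype in cluster 2, endothelial-like, theca-like, cumulus-like and glycolytic-like cells, 0 to 4 in mural-like against atretic-like cells and 5 to 7 in arterial-marked against unmarked cells. Without cells holding a UMI of Rgs5, Acta2, Myh11 or Des, 5 members passed in the arterial comparison. For genotype, DESeq2 called 1 member in cumulus-like cells, and without a filter on genes 1 was called in each of luteal-like, theca-like, atretic-like, cumulus-like and glycolytic-like cells. With the replicate number as a block, 0 members were called for genotype in each of the 21 groups and 0 for the interaction. Deviations of same-numbered libraries from their group means were only weakly and negatively correlated (r = -0.154 in GC-like, -0.0789 in stromal-like, -0.164 in endothelial-like and -0.127 in pericyte or smooth muscle-like cells). A crossed pairing, added after the data were seen, called 1 member in each of T or NK-like, theca-like, cumulus-like, glycolytic-like and growing follicle-like cells. The share of endothelial-like cells with a UMI was 15.2% thinned to 1000 UMIs and 55.5% without thinning for Notch1, and 17.6% and 51.3% for Dll4. That of pericyte or smooth muscle-like cells for Notch3 was 16.6% and 34.8%. These settings differ in the UMIs drawn per cell and in the cells covered, since cells with too few UMIs were left out. For these shares and the other counts that moved the cause was not tested. For the members called between cells and those with an unadjusted p under 0.05 for genotype or the interaction, with Fosl2 in GC-like cells, 563 alternative values kept their direction and their side of the threshold, 12 gained a call, 28 lost it and none of these reversed. Over all 130 member tests for genotype, the sign turned in 61 when some library was left out. The mean log2 TMM factor differed by over 0.1 between the sides of a comparison in luteal-like cells for genotype (0.12, Fosl2cKO minus Fosl2F/F). It also did so in endothelial-like against lymphatic endothelial-like cells (-0.13) and in GC-like against stromal-like cells (-0.11), as the first class minus the second. Removing 1.2% of barcodes per 1000 cells as doublets could not be fitted for endothelial-like against lymphatic endothelial-like cells, which left under 20 cells in a library. Oocyte-like cells, with as few as 17 cells in a library, were not tested for genotype.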

Other observations

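Other pathway genes also differed in level between classes, given here with no test. The transcription factor gene Rbpj was highest in dendritic-like cells (594 ± 147 CPM, range 416 to 767, n = 4 libraries), followed by macrophage-like cells (228 ± 57.7), with no overlap. Dtx2, a Deltex gene, was highest in oocyte-like cells (254 ± 82.8, range 160.1 to 358) and next in epithelial-like cells (31.9 ± 3.37). The ligand Dll3 had a higher mean in oocyte-like cells (26.6 ± 16.7) than in GC-like cells (1.18 ± 0.265). The oocyte-like libraries held only 43743 to 313520 UMIs of all genes, so this Dll3 level rests on few UMIs. Dll1 was found in lymphatic endothelial-like (22.5 ± 12.3) and endothelial-like cells (9.15 ± 1.10). Nrarp, a Notch target and feedback inhibitor, was detected in endothelial-like cells at 21.0 ± 11.6 and in pericyte or smooth muscle-like cells at 14.1 ± 10.9, which overlapped. Hes5 and Hes7 stayed below 2 CPM on average in every class.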
